A study of Macaca mulatta with 10 samples.

Results

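The 9 genes described here are COL1A1, COL1A2, COL3A1, LUM, DCN, FN1, TGFBI, TIMP3 and VIM, a set of extracellular matrix and mesenchymal genes that fibroblasts are known to express. They were chosen by name, with earlier results of these data known, and every probe set annotated to one of them was taken. The counts of calls below therefore describe these genes and do not test them as a set. The choice gave 20 of the 44210 tested probe sets and 9 of the 13191 measured genes. Each gene had from 1 to 5 probe sets, and all 20 were tested.

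Type I collagen is a triple helix of α1 chains encoded by COL1A1 and an α2 chain encoded by COL1A2, and with type III collagen, the product of COL3A1, it forms the fibrils of connective tissue. Lumican and decorin, the products of LUM and DCN, are small leucine-rich proteoglycans that bind collagen fibrils and regulate their spacing, and fibronectin, the product of FN1, links the matrix to integrins on the cell surface. TGFBI encodes a secreted adhesion protein named for its induction by TGF-beta, TIMP3 an inhibitor of matrix metalloproteinases that is held in the matrix, and VIM the intermediate filament protein vimentin.

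RNA came from ORMES6, a rhesus macaque embryonic stem (ES) cell line, and was hybridised to Affymetrix macaque arrays in 5 groups of 2 arrays. The ES group is the undifferentiated line, which the protocols describe as grown on mouse embryonic fibroblast feeders in medium with serum replacement and basic FGF. The other groups are differentiated cells at stage 2 of in vitro differentiation (IVDS2), the central foci of colonies at that stage (IVDS2-C), the peripheral area of those colonies (IVDS2-P), and differentiated cells at stage 3 (IVDS3). To drive the cells toward liver they were cultured together with hESdF, a fibroblast-like population made from a human ES cell source, and the series title frames the response as dependent on position in the colony. No group carries a genetic change, all come from 1 cell line, and the labels do not say whether mouse or human fibroblasts were removed before RNA was taken. They also leave it unsaid whether the repeats were grown separately, so the p-values cover only the spread between these arrays, which may be technical.

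The deposited log2 values had been centred on each probe set's median over the 10 arrays. A value therefore says how far an array lies above or below that median, and levels cannot be compared between genes. The ES arrays differed most from each other, with a standard deviation (SD) over probe sets of 0.403 for their difference, against 0.245 to 0.293 in the other groups. "Rose", "fell", "higher than" and "lower than" without a further test mark an adjusted p under 0.05 in limma (Benjamini-Hochberg, over all 44210 probe sets within a comparison). Changes are log2 fold change ± standard error with n = 2 arrays in each group. In these bulk samples a change in the number of expressing cells and a change in RNA per cell cannot be told apart. The 4 comparisons with ES share the ES arrays.

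Of the 20 probe sets, 14 rose in IVDS3 against ES, 1 fell and 5 were not called. Over all tested probe sets 37.8% were called in that comparison, 17.9% higher and 19.9% lower. The median change of the 20 was 2.64, against -0.108 over all tested probe sets. The genes that rose were COL1A2, COL3A1, LUM, DCN, FN1, TGFBI and TIMP3. The probe set that fell belonged to COL1A1, and the uncalled ones were the other COL1A1 probe set and all 4 of VIM.

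At stage 2 the colony centre had the most calls. In IVDS2-C 14 probe sets rose against ES and 1 fell, with 21.5% of all tested probe sets called (11.3% higher and 10.2% lower). In the whole stage 2 culture 5 rose and 0 fell, with 8.71% of all probe sets called (4.92% higher and 3.79% lower). In IVDS2-P 5 rose and 0 fell, with 7.55% called (4.97% higher and 2.58% lower). At an unadjusted p under 0.05, 1 member probe set was lower in limma in each of the last 2 comparisons. The median changes of the 20 were 1.14 in IVDS2-C, 0.516 in IVDS2 and 0.211 in IVDS2-P. These counts moved when single arrays were left out: to 8 called in IVDS2-C without IVDS2-C replicate 2, to 8 in IVDS2 without ES replicate 1 and 3 without IVDS2 replicate 2, and in IVDS2-P to 1 or 3 according to which of its arrays was dropped (replicate 2 or replicate 1).

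**Figure D1:**
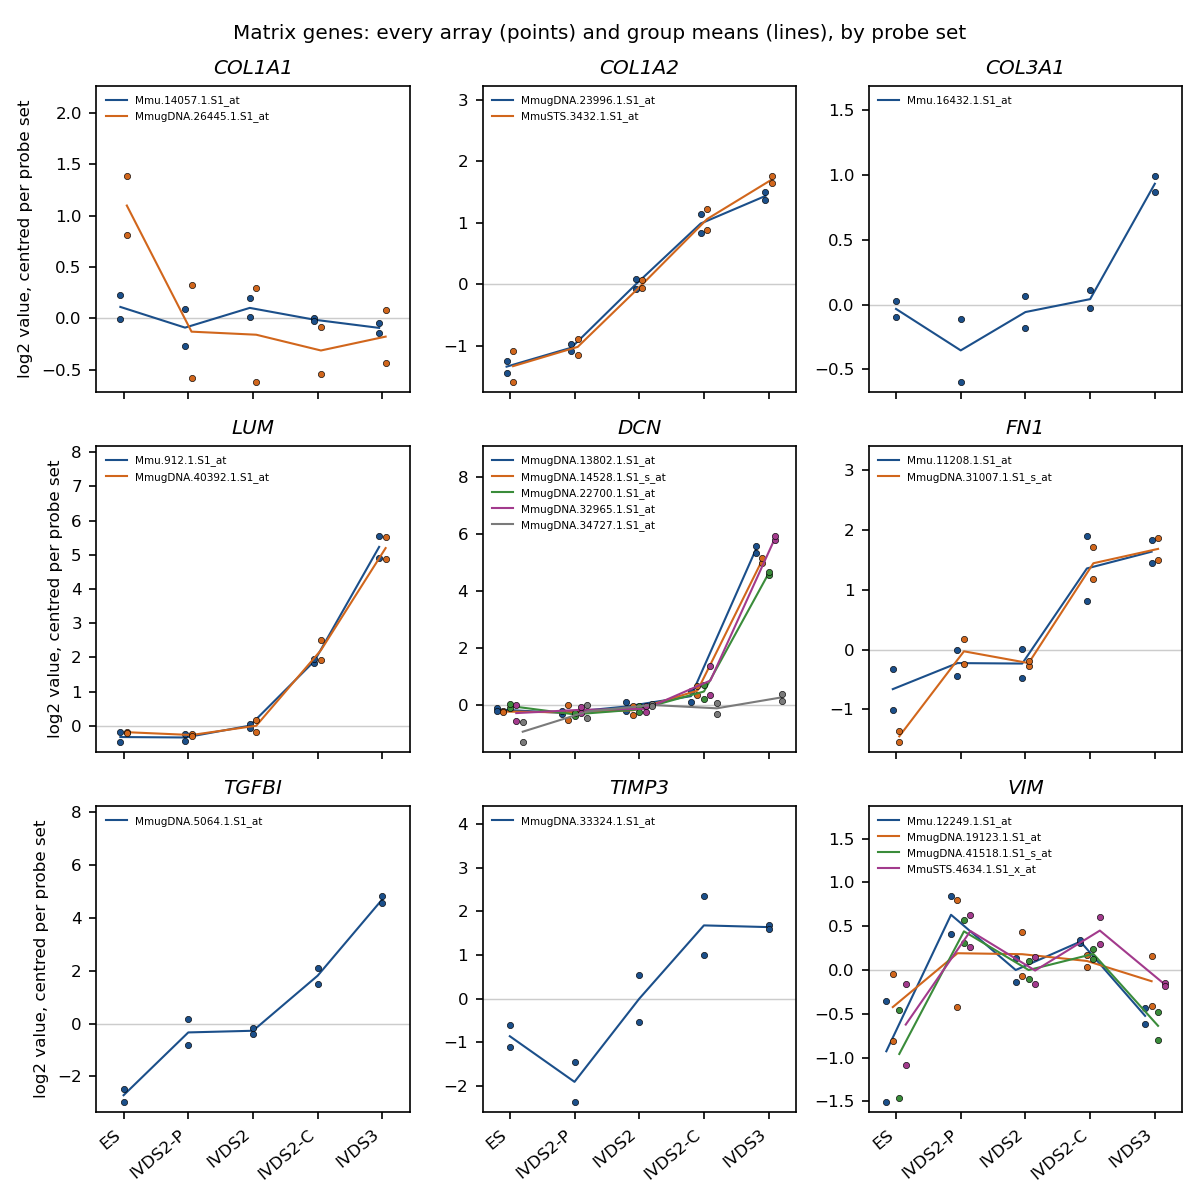
Values of the 20 probe sets, 1 panel per gene. Points are single arrays and lines join the means of each probe set over the 2 arrays of a group, with the groups placed in a display order on the horizontal axis; the vertical axis is the log2 value centred per probe set. COL1A2, COL3A1, LUM, TGFBI, FN1 and all 5 DCN probe sets have their highest group mean in IVDS3, FN1 and the fifth of DCN by little. Both COL1A1 probe sets have theirs in ES, Mmu.14057.1.S1_at by little, and VIM is lowest in ES and IVDS3.

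Among the fibrillar collagens, the genes of the 2 type I collagen chains gave different patterns. COL1A2 is represented by MmugDNA.23996.1.S1_at and MmuSTS.3432.1.S1_at. The first stood at -1.24 and -1.44 on the ES arrays, -1.09 and -0.98 in IVDS2-P, -0.08 and 0.08 in IVDS2, 1.14 and 0.83 in IVDS2-C, and 1.36 and 1.51 in IVDS3. The arrays of no group overlapped with those of another, and the order was ES, periphery, whole culture, centre and stage 3. The second gave -1.08 and -1.59 in ES, -1.16 and -0.89 in IVDS2-P, -0.07 and 0.07 in IVDS2, 1.23 and 0.89 in IVDS2-C, and 1.64 and 1.77 in IVDS3. Its order of group means was the same, but its ES and IVDS2-P arrays overlapped.

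Both COL1A2 probe sets rose against ES in IVDS2, IVDS2-C and IVDS3. Against ES the rise in IVDS3 was 2.78 ± 0.15 (6.87-fold, adjusted p = 2.06e-06) and 3.04 ± 0.19 (8.22-fold, adjusted p = 4.9e-06). In IVDS2-C it was 2.33 ± 0.15 and 2.40 ± 0.19, and in IVDS2 it was 1.34 for both. In IVDS2-P the changes of 0.31 ± 0.15 and 0.31 ± 0.19 were not called (adjusted p = 0.243 and 0.345), with 95% intervals of -0.03 to 0.65 and -0.12 to 0.75. The last step, from IVDS2-C to IVDS3, measured 0.45 ± 0.15 and 0.64 ± 0.19 and was not called either (adjusted p = 0.0798 and 0.0539). The second was called without either ES array (adjusted p = 0.0238) and with the 4 arrays alone (0.0394).

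The COL1A1 probe sets did not show this order. Probe set Mmu.14057.1.S1_at read -0.01 and 0.23 in ES, 0.09 and -0.27 in IVDS2-P, 0.01 and 0.19 in IVDS2, 0.01 and -0.03 in IVDS2-C, and -0.05 and -0.14 in IVDS3. All 10 arrays lay within 0.50 of each other, the smallest range of the 20 probe sets. No comparison was called, and the change in IVDS3 against ES was -0.20 ± 0.15 (adjusted p = 0.332) with a 95% interval of -0.55 to 0.14. In centred values it cannot be seen whether a probe set this flat reads above background, so these values do not show that the transcript stayed level.

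The other COL1A1 probe set, MmugDNA.26445.1.S1_at, stood at 1.39 and 0.81 in ES. It read 0.33 and -0.58 in IVDS2-P, -0.61 and 0.30 in IVDS2, -0.08 and -0.54 in IVDS2-C, and 0.08 and -0.43 in IVDS3. The ES arrays were above every other array, and the 4 differentiated groups overlapped with each other. It fell by 1.28 ± 0.38 on the log2 scale in IVDS3 (adjusted p = 0.0251) and by 1.41 ± 0.38 in IVDS2-C (adjusted p = 0.0274). The differences of -1.26 ± 0.38 in IVDS2 and -1.23 ± 0.38 in IVDS2-P were not called (adjusted p = 0.0783 and 0.087). Both calls rested on single arrays: the one in IVDS3 was lost without ES replicate 1 or IVDS3 replicate 2 (adjusted p up to 0.155), and the one in IVDS2-C without ES replicate 1 or IVDS2-C replicate 2 (up to 0.170).

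COL3A1 has 1 probe set, Mmu.16432.1.S1_at. It read -0.09 and 0.03 in ES, -0.11 and -0.59 in IVDS2-P, -0.18 and 0.07 in IVDS2, 0.11 and -0.03 in IVDS2-C, and 1.00 and 0.87 in IVDS3. Stage 3 was the only group whose arrays stood clear of all others, and it was higher than ES by 0.97 ± 0.17 (1.96-fold, adjusted p = 0.00187), than IVDS2 by 0.99 ± 0.17 and than IVDS2-C by 0.89 ± 0.17. The call against IVDS2-C was lost without IVDS3 replicate 1 (adjusted p = 0.0701). The difference between IVDS2-C and IVDS2-P, 0.40 ± 0.17, was not called (adjusted p = 0.242). In IVDS2-C the change of COL3A1 from ES was 0.08 ± 0.17 (adjusted p = 0.789), with a 95% interval of -0.32 to 0.47.

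The proteoglycan genes carried some of the largest changes of the set. LUM is read by Mmu.912.1.S1_at and MmugDNA.40392.1.S1_at. The first stood at -0.47 and -0.20 in ES, -0.24 and -0.45 in IVDS2-P, 0.06 and -0.06 in IVDS2, 1.83 and 1.96 in IVDS2-C, and 5.56 and 4.91 in IVDS3. The second gave -0.18 and -0.21, -0.24 and -0.31, -0.18 and 0.18, 1.92 and 2.50, and 5.52 and 4.87 in the same order of groups. Lumican transcript was thus above its median in the colony centre and higher again at stage 3, with no overlap between these 2 groups and the rest.

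Against ES, LUM rose by 5.56 ± 0.21 (47.3-fold) and 5.39 ± 0.24 (41.9-fold) in IVDS3, and by 2.23 ± 0.21 and 2.40 ± 0.24 in IVDS2-C. IVDS3 was also above IVDS2-C, by 3.34 ± 0.21 and 2.99 ± 0.24 (adjusted p = 1.1e-05 and 5.86e-05). In IVDS2-P the differences from ES were -0.01 ± 0.21 and -0.08 ± 0.24, with 95% intervals of -0.48 to 0.45 and -0.63 to 0.46. In whole IVDS2 cultures they were 0.33 ± 0.21 and 0.19 ± 0.24 (adjusted p = 0.404 and 0.727), and neither was called.

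DCN has 5 probe sets, and 4 of them behaved as a group. MmugDNA.32965.1.S1_at, the most variable, read -0.57 and 0.02 in ES, -0.27 and -0.04 in IVDS2-P, -0.22 and -0.02 in IVDS2, 0.37 and 1.37 in IVDS2-C, and 5.78 and 5.94 in IVDS3. The other 3, MmugDNA.13802.1.S1_at, MmugDNA.14528.1.S1_s_at and MmugDNA.22700.1.S1_at, stood between -0.51 and 0.10 in ES, IVDS2 and IVDS2-P, between 0.13 and 0.73 in IVDS2-C, and between 4.58 and 5.56 in IVDS3. Stage 3 stood far above the rest, and the centre of the colonies slightly above the remaining groups.

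The 4 rose in IVDS3 against ES by 4.64 ± 0.17 to 6.13 ± 0.30 (25.0-fold to 70.1-fold), and against IVDS2-C by 4.14 ± 0.17 to 5.12 ± 0.17. In IVDS2-C against ES, MmugDNA.14528.1.S1_s_at rose by 0.73 ± 0.20 (adjusted p = 0.0263) and MmugDNA.32965.1.S1_at by 1.14 ± 0.30 (adjusted p = 0.0249). The other pair measured 0.46 ± 0.17 and 0.50 ± 0.17 and was not called (adjusted p = 0.0796 and 0.0615). Each of these calls was lost without ES replicate 1 or IVDS2-C replicate 2, and that of MmugDNA.14528.1.S1_s_at also without ES replicate 2. The decorin values at the colony centre lay below those of lumican relative to ES, a contrast between genes for which no test was run.

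The fifth DCN probe set, MmugDNA.34727.1.S1_at, read -0.57 and -1.28 in ES, -0.44 and 0.01 in IVDS2-P, 0.03 and -0.01 in IVDS2, -0.30 and 0.09 in IVDS2-C, and 0.40 and 0.16 in IVDS3. ES lay below all other arrays, and among the differentiated groups IVDS3 alone overlapped with no other. It rose by 1.20 ± 0.25 in IVDS3 against ES (2.30-fold, adjusted p = 0.0038), with a 95% interval of 0.65 to 1.75 that ends below the interval of every other DCN probe set. Against IVDS2 the difference was 0.27 ± 0.25 (adjusted p = 0.477). It was also called against ES in IVDS2 (0.94 ± 0.25, adjusted p = 0.0461) and IVDS2-C (0.82 ± 0.25, adjusted p = 0.0415). Without ES replicate 2 both of these calls were lost, as they were without several other single arrays.

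At stage 2 outside the colony centre, TGFBI and 1 of the 2 probe sets of the fibronectin gene FN1 also rose. The FN1 probe set MmugDNA.31007.1.S1_s_at stood at -1.36 and -1.54 in ES, -0.24 and 0.18 in IVDS2-P, -0.27 and -0.18 in IVDS2, 1.17 and 1.72 in IVDS2-C, and 1.86 and 1.51 in IVDS3. Mmu.11208.1.S1_at gave -1.002 and -0.32 in ES, -0.01 and -0.44 in IVDS2-P, -0.48 and 0.01 in IVDS2, 0.81 and 1.90 in IVDS2-C, and 1.84 and 1.44 in IVDS3. On both, the centre and stage 3 overlapped and stood above the other groups. ES was clear of the rest on the first probe set and overlapped with IVDS2 and IVDS2-P on the second.

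FN1 rose in IVDS3 against ES by 3.13 ± 0.21 (8.78-fold) on MmugDNA.31007.1.S1_s_at and 2.30 ± 0.36 (4.92-fold) on Mmu.11208.1.S1_at, and in IVDS2-C by 2.89 ± 0.21 and 2.02 ± 0.36. In IVDS2 the first rose by 1.22 ± 0.21 (adjusted p = 0.0075, and 0.0561 without IVDS2 replicate 2). The second measured 0.43 ± 0.36 (adjusted p = 0.567). In IVDS2-P the first rose by 1.42 ± 0.21 (adjusted p = 0.00489, and 0.0541 without IVDS2-P replicate 2) and the second measured 0.44 ± 0.36 (adjusted p = 0.481). IVDS3 did not differ from IVDS2-C beyond the spread, at 0.24 ± 0.21 and 0.28 ± 0.36, with 95% intervals of -0.24 to 0.72 and -0.54 to 1.10.

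TGFBI had the largest rise of the 9 genes in IVDS3 against ES. Its probe set MmugDNA.5064.1.S1_at stood at -2.96 and -2.46 in ES, 0.16 and -0.83 in IVDS2-P, -0.16 and -0.39 in IVDS2, 1.51 and 2.11 in IVDS2-C, and 4.57 and 4.82 in IVDS3. ES lay below all other arrays, IVDS2 and IVDS2-P overlapped, and IVDS2-C and IVDS3 each stood clear. Against ES it rose by 2.44 ± 0.32 in IVDS2 (5.41-fold), 2.37 ± 0.32 in IVDS2-P (5.18-fold), 4.52 ± 0.32 in IVDS2-C (22.9-fold) and 7.41 ± 0.32 in IVDS3 (170-fold). These 4 calls held under every alternative that was run, with adjusted p up to 0.0187. TGFBI was 1 of 3 members with a probe set called higher than ES in the periphery, with FN1 and VIM.

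The metalloproteinase inhibitor TIMP3 was the member with the largest difference between centre and periphery. MmugDNA.33324.1.S1_at read -1.11 and -0.60 in ES, -2.36 and -1.44 in IVDS2-P, -0.54 and 0.54 in IVDS2, 1.00 and 2.36 in IVDS2-C, and 1.69 and 1.60 in IVDS3. The periphery was below every other array, and the centre overlapped with stage 3 above all others. TIMP3 rose against ES by 2.54 ± 0.48 in IVDS2-C (5.81-fold, adjusted p = 0.00545) and 2.50 ± 0.48 in IVDS3 (5.65-fold, adjusted p = 0.00271). The periphery's difference from ES of -1.04 ± 0.48 was not called (adjusted p = 0.221).

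Vimentin transcript followed another order. Mmu.12249.1.S1_at stood at -0.35 and -1.51 in ES, 0.42 and 0.85 in IVDS2-P, -0.14 and 0.14 in IVDS2, 0.31 and 0.34 in IVDS2-C, and -0.43 and -0.61 in IVDS3. MmugDNA.41518.1.S1_s_at gave -0.46 and -1.46, 0.31 and 0.57, -0.10 and 0.10, 0.24 and 0.13, and -0.48 and -0.80 in the same order of groups. The periphery was the highest group and ES overlapped with IVDS3 at the bottom. MmuSTS.4634.1.S1_x_at read -0.16 and -1.09 in ES, 0.27 and 0.62 in IVDS2-P, -0.16 and 0.14 in IVDS2, 0.30 and 0.60 in IVDS2-C, and -0.14 and -0.18 in IVDS3. On MmugDNA.19123.1.S1_at the IVDS2-P arrays, -0.42 and 0.81, spanned most of the range, and no comparison of it was called.

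VIM rose in IVDS2-P against ES by 1.56 ± 0.32 (adjusted p = 0.0179), 1.40 ± 0.28 (0.0169) and 1.07 ± 0.27 (0.0466) on the first 3 probe sets named. In IVDS2-C the rises were 1.25 ± 0.32 (adjusted p = 0.0205), 1.14 ± 0.28 (0.018) and 1.07 ± 0.27 (0.0217). In IVDS3 the differences from ES were 0.30 to 0.46 over the 4 probe sets, with adjusted p from 0.217 to 0.588. IVDS3 was below IVDS2-P by -1.16 ± 0.32 (adjusted p = 0.0203) and -1.08 ± 0.28 (adjusted p = 0.0158) on the first pair. Both of these calls were lost without IVDS2-P replicate 2 (adjusted p = 0.131 and 0.0968) or IVDS3 replicate 2 (0.107 for both), and that of Mmu.12249.1.S1_at also without IVDS3 replicate 1 (0.0682).

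ES replicate 2 was the lowest array on each VIM probe set, and the comparisons with ES moved with it. Without it, the 3 rises in IVDS2-C measured 0.67 ± 0.21, 0.64 ± 0.19 and 0.61 ± 0.21 and none was called (adjusted p = 0.059, 0.0528 and 0.086). In IVDS2-P the first pair stayed called without it, at 0.98 ± 0.21 and 0.90 ± 0.19 (adjusted p = 0.0454 and 0.0457), and MmuSTS.4634.1.S1_x_at measured 0.60 ± 0.21 (adjusted p = 0.183). Without ES replicate 1 the changes were larger, and in IVDS3 they measured 0.98, 0.82 and 0.93 on the first 3 probe sets named. On MmugDNA.19123.1.S1_at the change in IVDS3 was then 0.68. Without ES replicate 2 the changes in IVDS3 were -0.17, -0.18 and -0.005 on the same 3, and -0.09 on MmugDNA.19123.1.S1_at. The sign of the VIM change in IVDS3 thus depended on which ES array was kept. The calls in IVDS2-P were also lost without IVDS2-P replicate 2, that of MmugDNA.41518.1.S1_s_at also without IVDS2-P replicate 1, and that of MmuSTS.4634.1.S1_x_at without any array other than ES replicate 1. Those in IVDS2-C were lost without IVDS2-C replicate 2, and on the first pair also without IVDS2-C replicate 1. With only the 4 arrays of a comparison fitted in limma, none of the VIM calls in IVDS2-P or IVDS2-C against ES held. In the same order of probe sets, adjusted p was then 0.0781, 0.0715 and 0.136 in IVDS2-P, and 0.081, 0.0774 and 0.0851 in IVDS2-C.

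**Figure D2:**
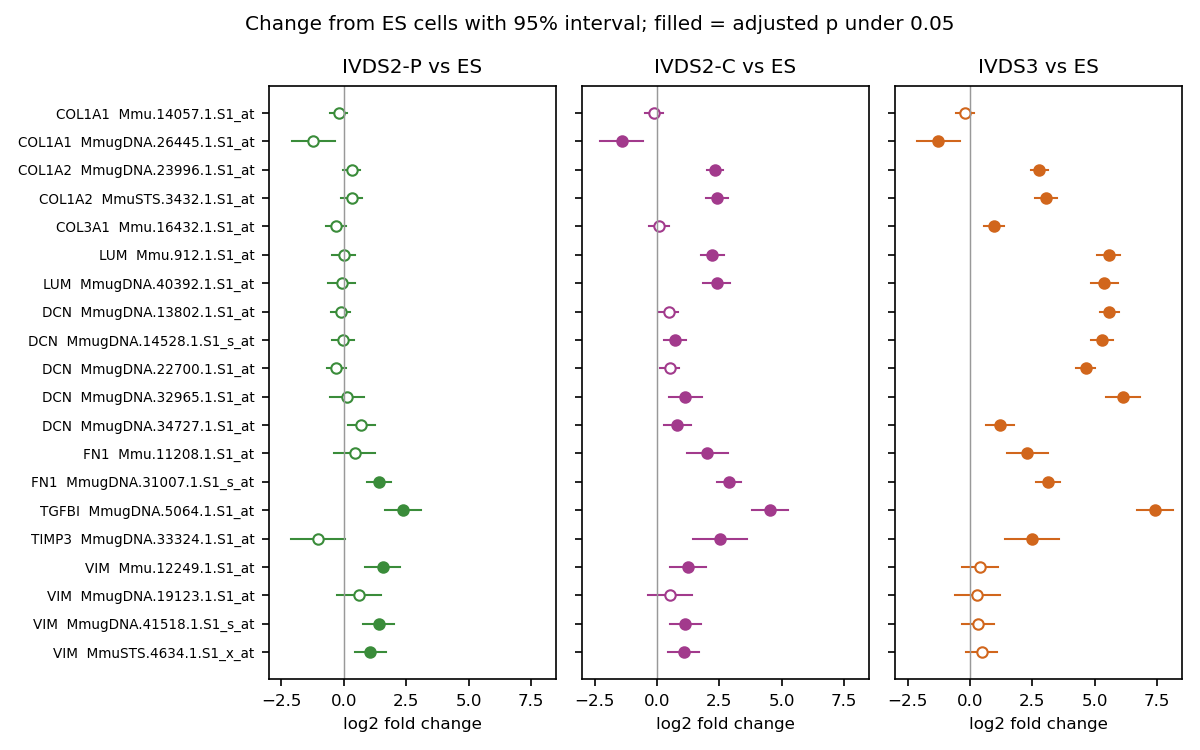
Log2 fold change against ES of the 20 probe sets in IVDS2-P, IVDS2-C and IVDS3, 1 panel per group on a shared horizontal axis. Points are limma estimates, bars are 95% intervals, and filled points have an adjusted p under 0.05. LUM lies near 0 in IVDS2-P, above 2 in IVDS2-C and above 5 in IVDS3, and 4 DCN probe sets lie above 4.6 in IVDS3 while the fifth lies at 1.20.

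The colony centre was then compared directly with the periphery. Of the 20 probe sets, 9 were higher in IVDS2-C and 0 lower, with 5.84% of all tested probe sets called (3.85% higher and 2% lower). At an unadjusted p under 0.05, limma gave 13 higher and 0 lower. The 9 belonged to COL1A2, LUM, DCN, FN1, TGFBI and TIMP3. The median difference of all 20 was 0.781, against -0.0189 for all tested probe sets.

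TIMP3 had the widest difference, 3.58 ± 0.48 (11.99-fold, adjusted p = 0.00338). LUM was higher in the centre by 2.24 ± 0.21 and 2.48 ± 0.24 (4.72-fold and 5.59-fold), and COL1A2 by 2.02 ± 0.15 and 2.08 ± 0.19 (4.06-fold and 4.23-fold). These 5 calls held under each alternative, with adjusted p up to 0.0382.

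TGFBI was higher in the centre by 2.15 ± 0.32 (4.42-fold, adjusted p = 0.00554), and that call was lost without IVDS2-C replicate 2 (0.0522). FN1 was higher by 1.47 ± 0.21 (adjusted p = 0.00482) and 1.58 ± 0.36 (adjusted p = 0.0357). Without IVDS2-P replicate 1 both FN1 calls were lost, with 0.0528 for the first. The second was also lost without IVDS2-P replicate 2, IVDS2-C replicate 2 or either IVDS3 array (adjusted p up to 0.273). A single DCN probe set, MmugDNA.22700.1.S1_at, was called at 0.80 ± 0.17 (adjusted p = 0.0254), and it too was lost without IVDS2-C replicate 2 or either IVDS2-P array. The other DCN probe sets that rose in IVDS3 by over 4.6 measured 0.58 to 1.03 with adjusted p from 0.0541 to 0.0833.

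The remaining members gave no called difference between centre and periphery. For COL1A1 the values were 0.08 ± 0.15 and -0.18 ± 0.38, with 95% intervals of -0.27 to 0.43 and -1.04 to 0.67. Whether the first of these reads its transcript above background could not be measured, so its narrow interval describes the probe set and sets no limit on the transcript. VIM gave -0.31 ± 0.32, -0.09 ± 0.39, -0.26 ± 0.28 and 0.01 ± 0.27.

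Between the stages, 13 of the 20 probe sets were higher in IVDS3 than in IVDS2 and 0 lower, with 28.6% of all tested probe sets called (13.6% higher and 15% lower). At an unadjusted p under 0.05, limma gave 13 higher and 1 lower. The called probe sets were those of COL1A2 (1.44 ± 0.15 and 1.70 ± 0.19), COL3A1, LUM (5.23 ± 0.21 and 5.20 ± 0.24), FN1 (1.91 ± 0.21 and 1.87 ± 0.36), TGFBI (4.97 ± 0.32), TIMP3, and the 4 concordant ones of DCN (4.76 ± 0.17 to 5.98 ± 0.30). TIMP3 differed by 1.64 ± 0.48 (adjusted p = 0.0296), and leaving out IVDS2 replicate 1 or either IVDS3 array ended that call (up to 0.189). The other 12 stayed called under all alternatives. On VIM, Mmu.12249.1.S1_at and MmugDNA.41518.1.S1_s_at differed by -0.52 and -0.64 and were called lower with the 4 arrays alone (adjusted p = 0.0412 and 0.026) and without either ES array (0.0452 and 0.0147), which took the count to 15.

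Further comparisons were added after the values were seen. IVDS3 was higher than IVDS2-C on 8 probe sets, those of COL3A1, LUM, TGFBI and the 4 of DCN, and lower on 0, with 14.9% of all tested probe sets called (7.74% higher and 7.17% lower). The COL3A1 call was lost without IVDS3 replicate 1. With the 4 arrays alone, or without either ES array, 12 were called, the additional ones being MmuSTS.3432.1.S1_at of COL1A2, which was higher, and 3 VIM probe sets, which were lower by -0.85, -0.82 and -0.61 (adjusted p = 0.00867, 0.0171 and 0.0362 with the 4 arrays). The TGFBI difference was 2.89 ± 0.32. For TIMP3 it was -0.04 ± 0.48 with a 95% interval of -1.12 to 1.04, so a 2-fold change either way was not resolved. Whole IVDS2 cultures were higher than IVDS2-P on 2 probe sets, both of COL1A2 (1.03 ± 0.15 and 1.02 ± 0.19), and lower on 0, with 0.95% of all tested probe sets called (0.629% higher and 0.321% lower). Both calls were lost when any 1 array of IVDS2, IVDS2-P or IVDS3 was left out, and that of MmuSTS.3432.1.S1_at also with the 4 arrays alone or with arrays centred on their medians. With the replicate number as a block TIMP3 was called as well, at 1.90 (adjusted p = 0.0218).

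IVDS2-C was higher than IVDS2 on 7 probe sets and lower on 0, with 3.49% of all tested probe sets called (2.68% higher and 0.812% lower). They were those of COL1A2, LUM, FN1 and TGFBI, and their number was 4 without IVDS2 replicate 1 or IVDS2-C replicate 2 and 2 without IVDS2 replicate 2. With the 4 arrays alone 1 was called, a LUM probe set. With the replicate number as a block 10 were, TIMP3 (1.68, adjusted p = 0.0221) and DCN on MmugDNA.32965.1.S1_at and MmugDNA.22700.1.S1_at (0.99 and 0.62, adjusted p = 0.0378 and 0.0466) being gained, and without IVDS2-C replicate 1 there were 9. With no adjustment, at a p under 0.05, limma gave 11 higher and 0 lower for IVDS2-C against IVDS2, 3 higher and 0 lower for IVDS2 against IVDS2-P, and 10 higher and 2 lower for IVDS3 against IVDS2-C. Against IVDS2-P, IVDS3 was higher on 13 probe sets and lower on 2 of VIM, whose calls were lost without IVDS2-P replicate 2 or IVDS3 replicate 2, with 30.9% of all tested probe sets called (14% higher and 16.9% lower).

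The probe sets of each gene were compared in 20 pairs, with an exact permutation test of whether their difference varied between groups. None passed after Benjamini-Hochberg adjustment, and 6 had an unadjusted p under 0.05. Adjusted p-values as low as 0.0705 were reached, by 3 DCN pairs. One of them joined MmugDNA.22700.1.S1_at and MmugDNA.32965.1.S1_at, both among the concordant DCN probe sets, with a difference that ranged over 1.49 (exact p = 0.0106). The others included MmugDNA.34727.1.S1_at. The pair that differed with the smallest unadjusted p, 0.00529 against a smallest possible value of 0.00106, was MmugDNA.13802.1.S1_at and MmugDNA.34727.1.S1_at, whose difference ranged over 5.22 between group means. The differences of the COL1A1 pair ranged over 1.29 (exact p = 0.106, adjusted 0.265), of the FN1 pair over 0.986 (0.304, adjusted 0.415), of the LUM pair over 0.35 (0.639, adjusted 0.655) and of the COL1A2 pair over 0.268 (0.248, adjusted 0.415). For the 6 VIM pairs the range ran from 0.189 to 0.944. Of the COL1A1 probe sets, 1 was called against ES and the other was not. The difference of Mmu.14057.1.S1_at from MmugDNA.26445.1.S1_at was -0.986 in ES and 0.039 to 0.299 in the other groups. Every regrouping that keeps the ES arrays together retains a difference confined to ES. Such a difference need not give a small exact p, however large it is. The test therefore cannot decide whether the COL1A1 probe sets differ in this way.

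Genes that moved most like each member were ranked by the root mean square difference over the 10 arrays, on the most variable probe set of the member. Each other gene was taken on its single closest probe set, so further probe sets of that gene need not follow the member. For COL1A2 they were COBLL1, SPATS2L and TNFRSF1B (0.344 to 0.35), with FN1 the closest other member (0.545). For LUM they were S100A14, ECM1 and PALMD (0.374 to 0.384), and for DCN IL1RN, GPNMB and MX2 (0.174 to 0.292), with LUM and DCN each other's closest member (0.625). FN1 was closest to PELI2, PDGFC and GNAI1 (0.23 to 0.262).

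TIMP3 was closest to WDR11 (0.145), F3 (0.337) and KRT7 (0.43), and TGFBI to CPT1A, SEMA3D and IFI16 (0.684 to 0.76). COL3A1 was closest to FBXO32, FAM3B and AMPD3 (0.12 to 0.136), VIM to PDE12, PRR3 and ARNT2 (0.162 to 0.18), and COL1A1, on its probe set that fell, to PTPRB, SERPINE2 and PDE4B (0.293 to 0.313). LUM and DCN lie next to each other in the RefSeq gene order of the macaque assembly T2T-MMU8v2.0, and COL3A1 lies between GULP1 and COL5A2. In limma GULP1 measured -1.76 in IVDS3 against ES (adjusted p = 5.21e-05) and -0.07 in the colony centre against the periphery (adjusted p = 0.866). COL5A2, which encodes a chain of type V collagen, rose by 1.44 in IVDS3 against ES (adjusted p = 7.94e-05) and was higher by 1.21 in the colony centre (adjusted p = 0.00251).

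The other genes of the matrix were counted from lists, on the mean of each gene's probe sets. Over all 13191 genes, 49.7% were called in IVDS3 against ES (21.1% higher and 28.6% lower) and 9.59% in IVDS2-C against IVDS2-P (5.64% higher and 3.95% lower). Among 12 other collagens, 5 rose and 1 fell in IVDS3. COL11A1, a minor fibril-forming chain, rose by 2.12 ± 0.14, COL16A1, a fibril-associated collagen, by 1.87 ± 0.17, and COL6A1, which forms beaded filaments, by 1.44 ± 0.13. COL5A2 and COL6A2 (0.99 ± 0.12) were the other two. COL5A3, named after its value was seen, fell by 0.93 ± 0.22, a call lost without IVDS3 replicate 2. In the colony centre COL5A2 and COL11A1 (0.93 ± 0.14) were higher and 0 collagens lower, also at an unadjusted p under 0.05 in limma.

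Of 23 genes for collagen processing and crosslinking, 4 rose and 7 fell in IVDS3. On each gene's most variable probe set 7 rose, while the 7 that fell stayed called and SERPINH1 fell as well. The call of LOXL1 (0.31) was lost under 10 alternatives and that of P3H1 (-0.38) under 4. P4HA2, a subunit of the prolyl hydroxylase that modifies collagen chains, rose by 3.77 ± 0.17 (13.6-fold), and LOX, which crosslinks collagen, rose by 1.24 ± 0.13. PCOLCE2, an enhancer of procollagen cleavage, fell by 1.74 ± 0.34 on the log2 scale. Between centre and periphery 0 were higher and PCOLCE was lower by -0.88 ± 0.18, a call lost without IVDS2-C replicate 2 or either IVDS2-P array. At an unadjusted p under 0.05, limma gave 4 higher and 6 lower. Of the other small leucine-rich proteoglycan genes 5 were measured: ASPN (2.28 ± 0.13) and OGN (1.76 ± 0.24) rose in IVDS3, OPTC fell by 0.65 ± 0.13, and 0 were called between centre and periphery, where 1 was higher and 1 lower at an unadjusted p under 0.05 in limma.

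Of 17 partners of fibronectin and elastic microfibrils, 2 rose and 4 fell in IVDS3, with 5 rising when ES replicate 1 was left out. EFEMP1, the fibulin-3 gene, rose by 5.05 ± 0.33 (33.2-fold) and was higher in the centre by 2.54 ± 0.33, where 1 gene of the list was called higher and 1 lower. VCAN, the large proteoglycan versican, went the other way, at -1.14 ± 0.23 in IVDS3 (a call lost on its most variable probe set, adjusted p = 0.0978) and -1.58 ± 0.23 in the centre, and THBS2, a matricellular protein, fell by 2.69 ± 0.23 in IVDS3. Of 16 metalloproteinase and inhibitor genes other than TIMP3, 7 rose and 4 fell. MMP10 and MMP1, secreted metalloproteinases, rose by 1.83 ± 0.29 and 1.81 ± 0.44, and the inhibitor gene TIMP2 by 1.72 ± 0.17. Without ES replicate 2 or IVDS3 replicate 1 the MMP1 call was lost. In the centre 3 were higher and 1 lower: ADAMTS1, a secreted protease, by 3.18 ± 0.39, TIMP2 by 1.20 ± 0.17, and MMP1 by 1.65 ± 0.44 with an adjusted p of 0.0499 that rose above 0.05 when any array of a differentiated group was left out. ADAMTS4, named after its value was seen, was lower by -0.62 ± 0.12, and not without IVDS2-C replicate 2 or either IVDS2-P array.

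Of 15 TGF-beta signalling genes, 8 rose and 3 fell in IVDS3, with 5 rising when IVDS3 replicate 2 was left out. SMAD3, which carries the signal to the nucleus, rose by 1.30 ± 0.17, and SMAD7, an inhibitor of the pathway, by 1.24 ± 0.33, a call lost without ES replicate 1 or IVDS3 replicate 2. TGIF1, a repressor, fell by 1.19 ± 0.18. In the centre SMAD7 was higher by 2.07 ± 0.33 and SKIL, another repressor, by 1.39 ± 0.18. No gene of the list was lower there, also at an unadjusted p under 0.05 in limma. The SMAD7 call was lost without IVDS2-P replicate 1.

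Of 6 intermediate filament genes other than VIM and keratins, 2 rose and 3 fell in IVDS3. LMNA, a lamin of differentiated cells, rose by 1.05 ± 0.13, and LMNB1, another lamin, and NEFH, a neurofilament gene, fell by 2.48 ± 0.19 and 1.18 ± 0.18. In the centre 0 were higher and PRPH, the peripherin gene, was lower by -1.16 ± 0.18, with 1 higher and 4 lower at an unadjusted p under 0.05 in limma. Of 7 mesenchymal transition regulators 2 rose and 1 fell in IVDS3: PRRX1 (2.08 ± 0.30) and CDH1, the epithelial cadherin gene kept in that list as its counterpart (1.16 ± 0.24), rose, and SNAI1 fell by 0.75 ± 0.23, a call lost without ES replicate 2 or either IVDS3 array. In the centre CDH1 was higher by 1.20 ± 0.24, a call lost without IVDS2-C replicate 2 or IVDS2-P replicate 1, and TWIST1 and PRRX1 were lower.

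**Figure D3:**
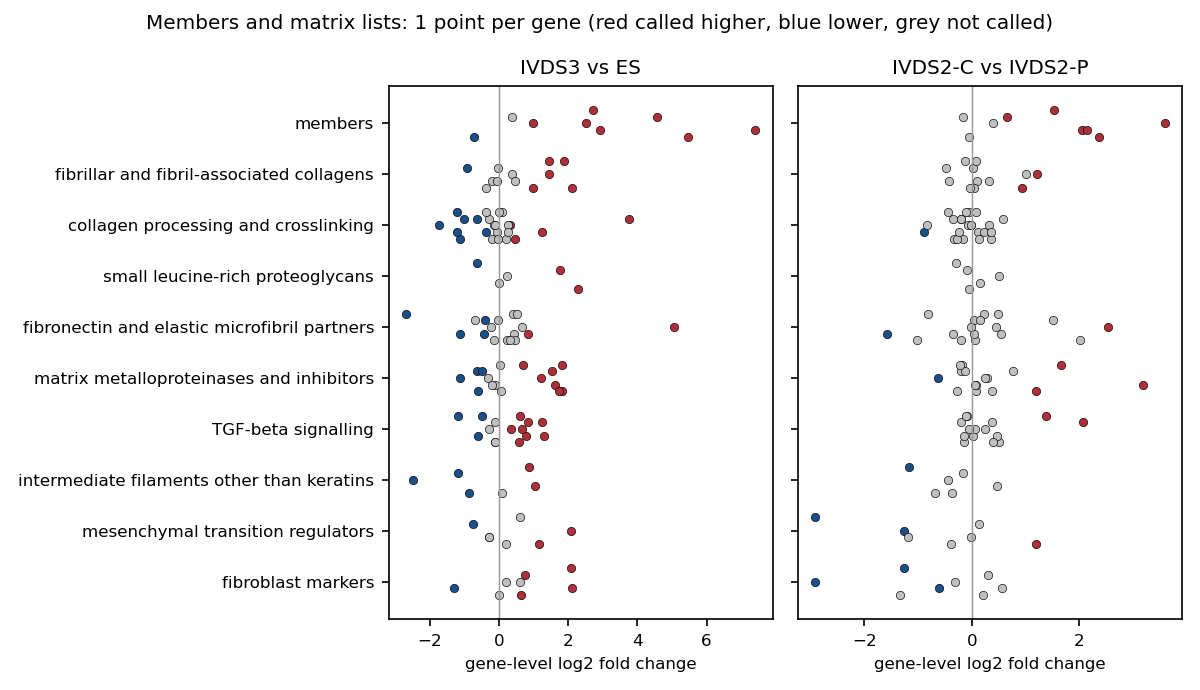
Gene-level log2 fold change of the 9 genes (top row) and of 9 lists, in IVDS3 against ES and in IVDS2-C against IVDS2-P. Each point is 1 gene on the mean of its probe sets, coloured red when called higher, blue when called lower and grey otherwise; points are spread vertically within a row for legibility. The fibroblast markers include 4 red points and 1 blue point in IVDS3 and only blue or grey points in the colony centre; the COL1A1 point averages its 2 unlike probe sets.

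The name fibroblast was checked against markers other than the 9 genes. Of 8 measured fibroblast markers, 4 rose in IVDS3 and 1 fell. FAP, a membrane protease of activated fibroblasts, read -0.08 and -0.15 in ES and 2.36 and 1.64 in IVDS3, and rose by 2.12 ± 0.22. NT5E and S100A4, named after their values were seen, rose by 0.75 ± 0.13 and 0.64 ± 0.16, the latter not without IVDS3 replicate 2. PRRX1, a mesenchymal transcription factor, rose by 2.08 ± 0.30. THY1, a surface marker that pluripotent cells also carry, read 1.17 and 1.26 in ES and -0.02 and -0.18 in IVDS3, and fell by 1.31 ± 0.14. PDGFRA, PDGFRB, TWIST2 and TCF21 were not analysed here.

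In the colony centre, where 9 matrix probe sets were higher, 0 of the 8 fibroblast markers were higher and 3 lower. TWIST1, a mesenchymal transcription factor, read 2.34 and 1.41 in IVDS2-P and -0.92 and -1.14 in IVDS2-C, a difference of -2.91 ± 0.35 that held under each alternative. PRRX1 differed by -1.27 ± 0.30 and THY1 by -0.61 ± 0.14, and both calls were lost without IVDS2-C replicate 1, IVDS2-C replicate 2 or IVDS2-P replicate 1. Both were also lost with the 4 arrays alone, and that of PRRX1 on its most variable probe set. FAP measured 0.56 in the centre on the mean of its probe sets (adjusted p = 0.149 in limma) and was called higher on its most variable probe set. At an unadjusted p under 0.05, limma gave 2 markers higher and 4 lower. The median of the 8 markers was -0.26 and -0.17 on the ES arrays, 0.24 and 0.27 in IVDS2-P, -0.06 and -0.04 in IVDS2, -0.000636 and -0.27 in IVDS2-C, and 0.58 and 0.45 in IVDS3. The part of mouse feeder or hESdF fibroblasts in the values of the 9 genes was not tested.

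**Figure D4:**
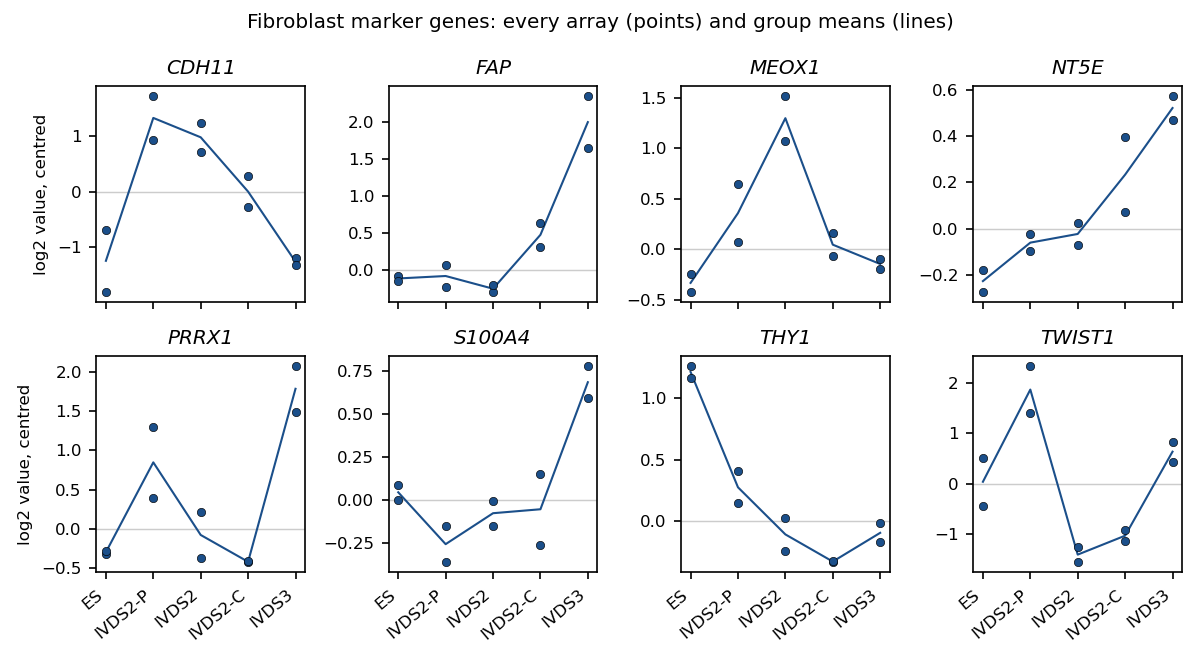
Gene-level values of the 8 measured fibroblast markers. Points are single arrays and lines join group means, with the groups in the same display order as for the 9 genes; the vertical axis is the log2 value centred per probe set and has its own scale in each panel. TWIST1 and CDH11 are highest in IVDS2-P, FAP, PRRX1, NT5E and S100A4 in IVDS3, MEOX1 in IVDS2 and THY1 in ES.

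Markers of other cell types moved between the same groups. Of 7 epithelium markers, 6 rose and 1 fell in IVDS3, and 6 were higher in the colony centre. The remaining one, KRT18, measured -0.50 in the centre (adjusted p = 0.077 in limma) and was called lower with the replicate block. The calls of KRT8 (1.19) and CDH1 in the centre did not hold under every alternative. KRT19, a simple epithelial keratin, rose by 2.96 ± 0.20 and was higher in the centre by 1.55 ± 0.20. ESRP2, an epithelial splicing factor, gave 2.06 ± 0.23 and 1.55 ± 0.23, and CLDN4, a tight junction protein, 1.83 ± 0.16 and 1.25 ± 0.16. The median of the epithelium markers was -0.72 and -0.09 in ES, -1.33 and -0.84 in IVDS2-P, 0.02 and 0.00 in IVDS2, 0.05 and 0.17 in IVDS2-C, and 0.59 and 0.64 in IVDS3. KRT18, named after its value was seen, fell by 0.49 ± 0.15 in IVDS3, a call lost without ES replicate 2 or IVDS3 replicate 2. Of 7 pluripotent cell markers 6 fell and NANOG rose in IVDS3, and 5 were lower in the centre. The fall of UTF1 (-0.51, adjusted p = 0.0432 in limma) was lost under 13 alternatives, among them the 4 arrays alone and the replicate block. In the centre the call of SALL4 (-1.42, adjusted p = 0.0425) was lost under 8 alternatives, and with the 4 arrays alone 2 markers were lower. POU5F1, DPPA4 and DNMT3B fell by 7.60 ± 0.79, 5.93 ± 0.53 and 5.25 ± 0.37 in IVDS3, and in the centre they differed from the periphery by -3.41 ± 0.79, -2.50 ± 0.53 and -2.21 ± 0.37. Those 3 calls in the centre were lost without IVDS2-P replicate 1, the first pair also without IVDS2-P replicate 2, and POU5F1 also without IVDS2-C replicate 2 or either IVDS3 array.

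Of 6 endothelium markers 0 rose and 3 fell in IVDS3, namely TEK by 2.49 ± 0.22, KDR by 1.32 ± 0.31 and CDH5 by 0.41 ± 0.11, the last pair not called without IVDS3 replicate 2. Of 4 smooth muscle markers 0 rose and 2 fell, CNN1 by 2.81 ± 0.29 and MYH11 by 0.98 ± 0.30, the latter not called without ES replicate 1 or IVDS3 replicate 1. TAGLN was higher in the centre by 1.14 ± 0.25, a call lost without IVDS2-C replicate 2 or IVDS2-P replicate 1. Of 3 hepatic markers 0 rose and 2 fell, APOA1 by 1.84 ± 0.55, lost without ES replicate 1 or IVDS3 replicate 1, and AFP by 0.64 ± 0.12. SERPINA1, the remaining hepatic marker, measured 0.15 on the mean of its probe sets (adjusted p = 0.319 in limma) and was called higher on its most variable probe set. ALB, TTR and HNF4A, also on the hepatic list, were not analysed here. On gene means at an unadjusted p under 0.05, limma gave 0 rising in these 3 lists, and between centre and periphery 0 hepatic and 0 endothelium markers were higher. The part of these cell types in the values of the 9 genes was not tested.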

How the data were processed

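RNA of 10 samples of the ORMES6 line in 5 groups of 2 was measured on Affymetrix macaque arrays. The deposited values are on a log2 scale and came from RMA, per the submitters' processing notes, its version being not given in the sources used here; the log base was read from the values (largest range of a probe set 9.51). The authors had subtracted a median over arrays from every probe set, as the deposited values show, so absolute level, and a filter on dim probe sets, could not be had. The 84 control probe sets were left out. Gene names came from the platform annotation, checked against RefSeq (22520 of 22815 annotated probe sets matched), and 22802 tested probe sets had 1 gene, 316 several and 21092 none.

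One linear model with a term per group was fitted to all 10 arrays in limma 3.58.1 (R 4.3.3; 5 residual degrees of freedom, prior 4.33), for 6 comparisons and 4 added after the values were seen. Calls used a threshold of 0.05 after Benjamini-Hochberg adjustment across the 44210 probe sets, or, on the mean of a gene's probe sets, across the 13191 genes. The intervals are 95% intervals of the limma estimates. Scripts were tested on simulated data. Alternatives were a fit to the 4 arrays of a comparison alone, the replicate number as a block, subtraction of every array's median, robust empirical Bayes, each gene's most variable probe set, and leaving out each array in turn. Pairs of probe sets were compared by an exact permutation test over the 945 ways to put the 10 arrays into 5 groups of 2.

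The named genes are the 9 members, up to 3 called genes with the largest change per list in IVDS3 against ES and in IVDS2-C against IVDS2-P, and the 3 genes closest to each member. COL5A2 in IVDS3, COL6A2, COL5A3, ADAMTS4, NT5E, S100A4, KRT18, NANOG and the fibroblast marker arrays were named after their values were seen. So were FAP in the colony centre, SERPINA1, UTF1, SALL4, LOXL1, P3H1, SERPINH1, KRT8 and GULP1. The members and the 14 lists (8 of matrix genes and 6 of cell markers, 133 genes measured) were chosen with earlier results of these data known.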

Additional observations from a re-analysis of the deposited data

How the results depend on the processing

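Of the 62 calls of member probe sets in the 6 comparisons, 43 held under every alternative run and 19 were lost under at least 1, and of 58 uncalled values 14 were called under at least 1. No called value changed sign, and signs of values called under neither setting were not compared. With only the 4 arrays compared, 2 member probe sets were called in IVDS2-P against ES in place of 5. In IVDS2-C against ES 10 were called in place of 15, and in IVDS2 against ES 4 in place of 5, while IVDS3 against ES kept 15. The count was 7 in place of 9 in IVDS2-C against IVDS2-P, and 15 in place of 13 in IVDS3 against IVDS2. Leaving out single arrays gave 3 to 8 calls in IVDS2 against ES, 8 to 15 in IVDS2-C against ES, 1 to 6 in IVDS2-P against ES, 14 to 17 in IVDS3 against ES, 6 to 11 in IVDS2-C against IVDS2-P and 12 to 15 in IVDS3 against IVDS2. In the 4 comparisons added later the counts were 2 to 9 in IVDS2-C against IVDS2, 0 to 2 in IVDS2 against IVDS2-P, 7 to 12 in IVDS3 against IVDS2-C and 13 to 16 in IVDS3 against IVDS2-P. The replicate numbers were not taken as pairs: the correlation of replicate differences between groups ran from -0.119 to 0.254 and was over 0.1 in 5 of 10 pairs of groups, so pairing was neither shown nor excluded. With the replicate block the counts were 4 in IVDS2, 15 in IVDS2-C, 4 in IVDS2-P and 15 in IVDS3 against ES, 10 in IVDS2-C against IVDS2-P and 13 in IVDS3 against IVDS2, with 2 calls gained and 3 lost, and in the added comparisons, in the order above, 10, 3, 8 and 15. Because the values were centred, signal over background is unknown, and whether a flat probe set such as that of COL1A1 read above background could not be measured. A lone array of a group was taken to vary like the other groups.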
